A study of Drosophila melanogaster with 6 samples.

Results

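The glutathione S-transferase (GST) genes described here are the gene rows whose FlyBase symbol begins with Gst, then a class letter (D, E, O, S, T or Z) and a digit. The rule used names and no measured value, and it found 35 of the 17471 genes counted in wing discs, the larval tissue from which the adult wing grows. There were 11 delta (D), 14 epsilon (E), 3 omega (O), 1 sigma (S), 4 theta (T) and 2 zeta (Z) genes. RNA came from discs of wandering female larvae in the third instar, with 30 discs pooled per sample, and was compared between animals homozygous for the null allele dLsd1∆N (3 samples) and *wild-type* animals of the w1118 stock (3 samples). The deletion was made by recombination between a pair of piggyBac insertions and removes dLsd1 from the whole animal. Mutant and w1118 animals came from separately maintained stocks (a balanced stock for the mutant, an inbred stock without isogenisation for w1118), so that genetic background and genotype cannot be told apart in these samples.

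GST enzymes join the thiol of glutathione to reactive or foreign molecules, which makes these easier to export, and several also reduce peroxides made from lipids. In flies the delta and epsilon classes are large, lie in gene clusters and are best known for insecticide resistance, while the omega, sigma, theta and zeta classes are shared with many other animals. GstD1 is widely used as a reporter gene for oxidative stress, since the transcription factor CncC, the fly relative of Nrf2, acts on it when its partner Keap1 releases it. dLsd1 is a histone demethylase that removes methyl groups from lysine 4 of histone H3 and acts mainly as a corepressor.

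The libraries held between 13960866 counts (*wild-type* replicate 2) and 45909324 counts (*wild-type* replicate 3), so that low values were least precise in *wild-type* replicate 2. The gene of dLsd1, listed as Su(var)3-3, had 7, 6 and 1 counts in the mutant libraries and 2136, 676 and 2564 in the *wild-type* libraries. *Wild-type* replicate 3 differed most from its own group, with a chi-square per degree of freedom over features of 239.7 and 143.5 against the other *wild-type* libraries, while the other pairs of replicates gave 33.5 to 74.9. This measure grows with depth, so values for pairs with *wild-type* replicate 2 read lower and are not on the scale of the mutant pairs. None of the 14 wing disc markers tested passed the thresholds, and their summed level was 2182 to 2422 CPM (of all gene counts) in mutant and 1827 to 2929 in *wild-type* libraries. The standard errors of their log2 fold changes ran from 0.11 (ara) to 0.75 (hth), so some markers were only loosely bounded. In *wild-type* replicates 1 to 3, hth had 1311, 2584 and 9401 counts scaled to the mean effective library size. For sd these were 6701, 6321 and 17446, and for ara 6222, 6785 and 5778. Among the markers of other tissues, 1 of 10 for fat body (Lsp1alpha, higher in the mutant), 2 of 10 for haemocytes (PPO1 higher, NimC1 lower), 1 of 11 for muscle (Mlc2, higher), 0 of 7 for trachea, 0 of 7 for salivary gland and 3 of 9 for gut and Malpighian tubule (Amy-d, Amy-p and Irk1, all higher) passed. The thresholds were a log2 fold change beyond 0.6 in either direction and an adjusted p below 0.1, which 6.55% of all genes tested passed. The summed levels overlapped between the genotypes for all of these lists except that of gut and tubule, at 388 to 406 CPM in mutant and 338 to 378 in *wild-type* libraries. Nearly all of that sum came from Vha55, Best2 and Irk1, with log2 fold changes of -0.08, 0.01 and 0.83. Of these only Irk1 passed. The median log2 fold change of the gut and tubule list was 0.83, the value of Irk1 itself, or 0.62 with 5 genes near the floor set to their bounds. The amylase gene Amy-d had 12, 13 and 11 counts in mutant and 0 in each *wild-type* library. In the other direction, Jon99Ci had 0 counts in each mutant library and 12, 0 and 4 in *wild-type* libraries. For alphaTry the counts were 1, 40 and 0 in mutant and 0 in each *wild-type* library. Mal-A1, betaTry and Uro had 0 counts in every library. For fat body the sum was 229.6 to 661 in mutant and 135 to 939.9 in *wild-type* libraries, and for haemocytes 166 to 255 in mutant and 137 to 222 in *wild-type* libraries. For muscle it was 797 to 876 in mutant and 521 to 843 in *wild-type* libraries, for trachea 1106 to 1198 in mutant and 1071 to 1188 in *wild-type* libraries, and for salivary gland 2.86 to 14.5 in mutant and 0.636 to 24.9 in *wild-type* libraries. The part of other tissues in the GST values was not tested.

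Levels are given as CPM per kilobase of merged exons, after TMM scaling of the libraries, so that genes of different length can be compared. Of the 35 genes, 17 had a level above 10 in *wild-type*. GstD1 had the highest, at 857 ± 84.9 in the mutant and 1334 ± 142 in *wild-type* (SD, n = 3 libraries each), rank 78 of 17249 genes by *wild-type* level. It was followed in *wild-type* by GstS1 (279 ± 23.0 in the mutant and 369 ± 11.96 in *wild-type*) and GstO3 (283 ± 16.7 in the mutant and 253 ± 42.8 in *wild-type*). GstE11, GstE12, GstO2, GstD3, GstE13 and GstT1 came next, with *wild-type* means between 163 and 78.6. At the other end, GstD11, GstE4 and GstE10 had 0 counts in all 6 libraries, which allows up to 0.0140 CPM over all libraries (3 counts, counting error only). GstD8 had 2 counts in mutant replicate 1 and 0 elsewhere, and GstE2 had 3 counts in all. These 5 genes were too low to be tested.

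**Figure D1:**
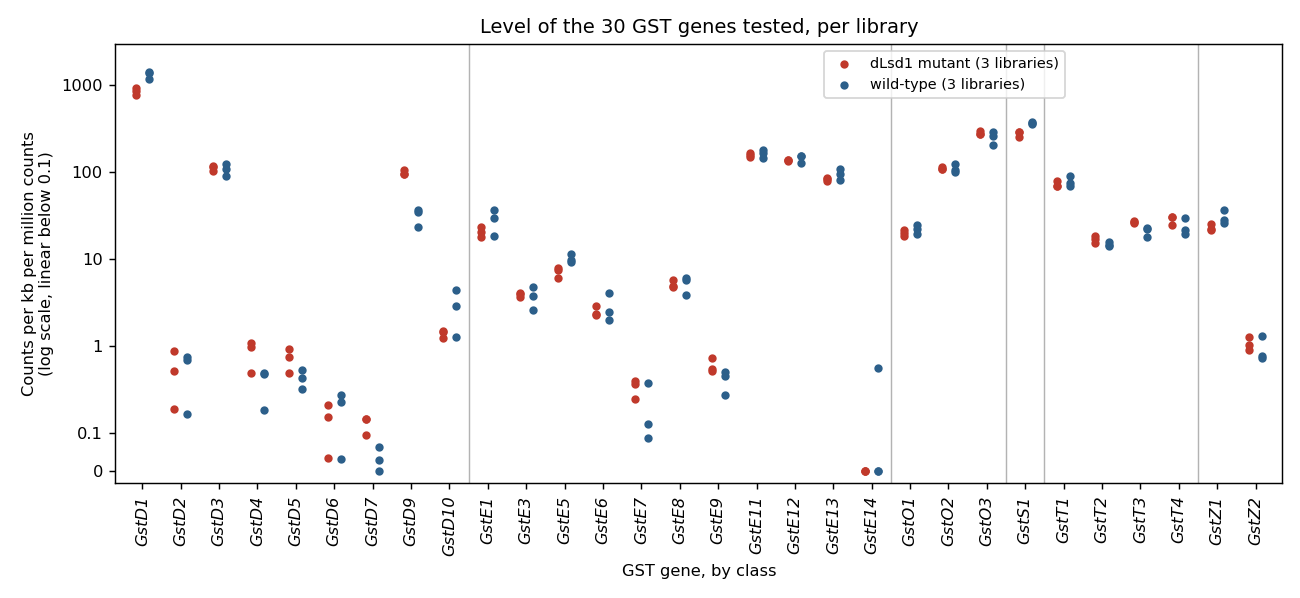
Level of the 30 GST genes tested, in CPM per kilobase of merged exons on a log axis that is linear below 0.1, with genes ordered by class and each point a library (*dLsd1* mutant left, *wild-type* right). The levels run from 0 to above 1000, GstD1 is the highest gene, and the mutant points of GstD9 lie between 94.4 and 105, above its *wild-type* points between 23.5 and 36.4.

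Summed over its members, the delta class made up 44.3 to 47.6% of the GST level in mutant libraries and 51.2 to 52.4% in *wild-type* libraries. GstD1 alone gave 34.2 to 38.7% in mutant and 46.2 to 47.3% in *wild-type* libraries. The epsilon class had a summed level of 418 ± 6.9 in the mutant and 456 ± 54.6 in *wild-type*, and the omega class 415 ± 15.2 in the mutant and 385 ± 54.7 in *wild-type* (SD, n = 3 each). The theta class had 145 ± 9.7 and the zeta class 24.04 ± 2.02 in the mutant, against 138 ± 13.6 for theta and 31.3 ± 5.41 for zeta in *wild-type*. All GST genes together took 0.266 to 0.272% of gene counts in mutant libraries and 0.284 to 0.337% in *wild-type* libraries, and these ranges did not overlap. Without GstD1 alone the shares were 0.192 to 0.197% in mutant and 0.186 to 0.219% in *wild-type* libraries and already overlapped. Without GstD1 and GstS1 they were 0.125 to 0.136% in mutant and 0.105 to 0.134% in *wild-type* libraries and overlapped as well. These sums are a description and were not tested.

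**Figure D2:**
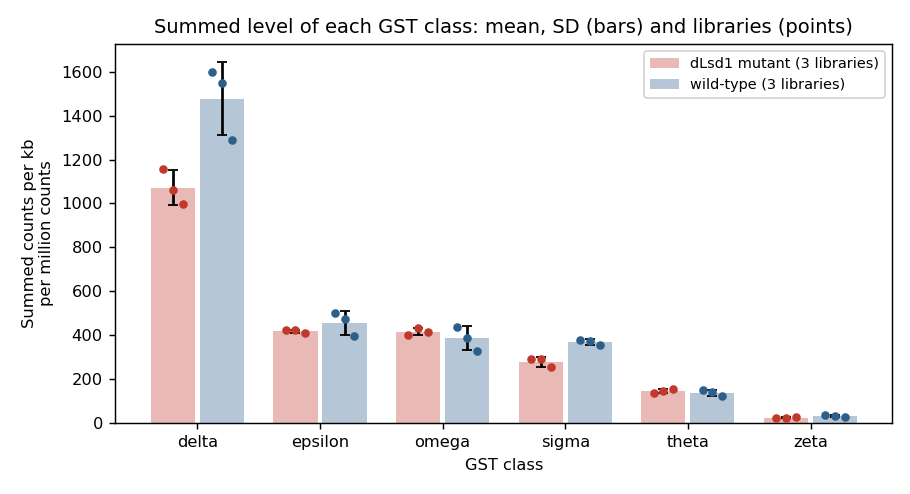
Summed level of each GST class in CPM per kilobase, with bars for the mean, error bars for the SD over 3 libraries and a point per library (*dLsd1* mutant left, *wild-type* right). The delta, sigma and zeta sums are lower in all 3 mutant libraries than in all 3 *wild-type* libraries, while the epsilon, omega and theta sums overlap.

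To ask which GST genes differed between mutant and *wild-type* discs, all features with at least 10 counts over the 6 libraries entered 1 fit of edgeR's quasi-likelihood model. A gene was called when its log2 fold change (log2FC, mutant over *wild-type*) was beyond 0.6 in either direction with an adjusted p-value below 0.1. Of the 30 GST genes tested, GstD9 rose and GstD1 fell, while the other 28 did not pass. The 2 called genes are 6.67% of those tested, beside 6.55% of all 10841 genes tested, a share near that of all genes. By direction the background was 4.32% for genes that rose and 2.23% for genes that fell. The log2FC was positive for 16 and negative for 14 GST genes. Their median was 0.01, or 0.00 with the 2 genes at or near the floor in 1 genotype set to their bounds, beside a median of -0.02 over all genes tested. In 8 of the 30 genes (26.7%) the mutant and *wild-type* libraries did not overlap, beside 25.1% of all genes, with 4 genes above (13.2% of all genes) and 4 below (11.9% of all genes). At an unadjusted p below 0.05 there were 7 GST genes, or 23.3%, beside 18.5% of all genes.

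How closely the other genes were bounded depended on their counts. Of the 19 GST genes with a mean of at least 100 counts, 17 were not called, and their log2FCs lay between -0.52 (GstE5) and 0.36 (GstT3). For 16 of these 17 the 95% interval of the log2FC lay within -1 and 1, the exception being GstE1, whose interval ran from -1.05 to 0.14. The standard errors (SE) of the log2FC were 0.11 to 0.26 for these 19 genes and 0.30 to 2.87 for the 11 genes with fewer counts. In discs, which hold several cell types, fewer cells expressing a gene and less RNA per cell cannot be told apart.

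**Figure D3:**
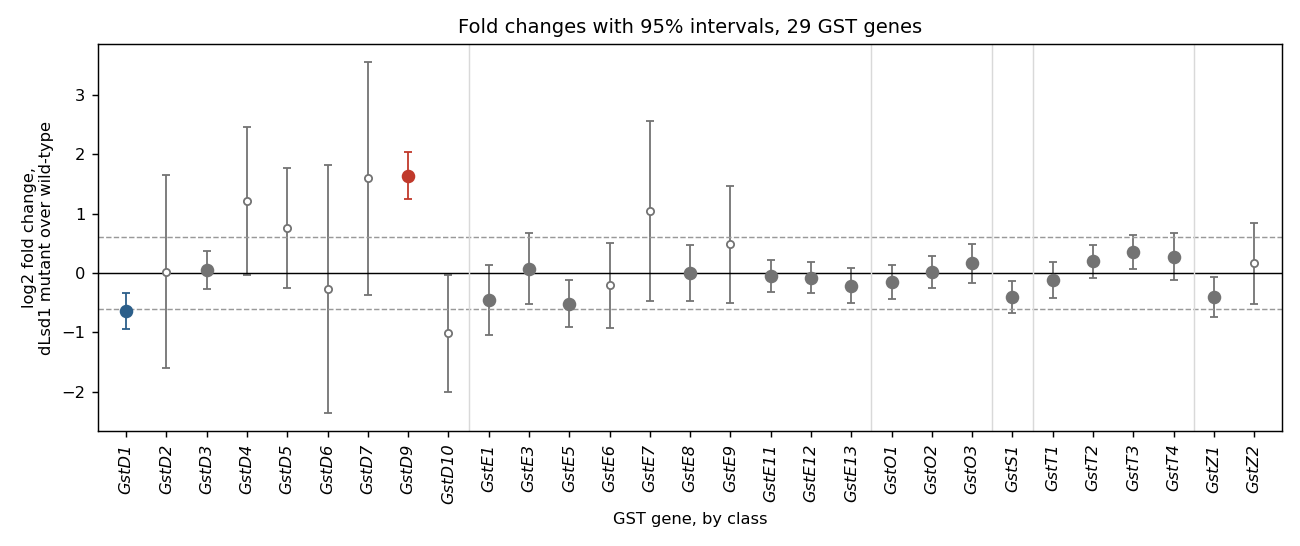
Log2FC (*dLsd1* mutant over *wild-type*) with its 95% interval for 29 GST genes by class, where filled points have a mean of at least 100 counts, open points fewer, and dashed lines mark -0.6 and 0.6 (GstE14, with counts in a single library, is left out). GstD9 in red is above the upper line at 1.64, GstD1 in blue is just below the lower line at -0.64, and the remaining filled points in grey lie between the lines.

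GstD9 (FBgn0038020; 3R, 12366163 to 12367564, minus strand), a delta class enzyme, rose about 3.12-fold. It had 2673, 2726 and 2985 normalised counts (counts scaled to the mean effective library size) in the mutant libraries, against 1032, 994 and 664 in the *wild-type* libraries. Every mutant library was thus more than 2 times as high as every *wild-type* library, with *wild-type* replicate 3 the lowest of the 6. The means were 2795 ± 167 in the mutant and 897 ± 202 in *wild-type* (SD, n = 3 each), and the log2FC was 1.64 (SE 0.17, edgeR adjusted p = 0.00124). It was lowest, at 1.46, when *wild-type* replicate 3 was left out and highest, at 1.76, when *wild-type* replicate 1 was, and GstD9 passed the thresholds in every alternative fit that was run.

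GstD1 (FBgn0001149; 3R, 12367817 to 12369268, minus strand), whose enzyme also breaks down the insecticide DDT, fell to 28572, 26004 and 23417 normalised counts in the mutant libraries, against 43515, 42394 and 35543 in the *wild-type* libraries. The groups did not overlap, and *wild-type* replicate 3 was again the lowest of its group. The means were 25998 ± 2577 in the mutant and 40484 ± 4316 in *wild-type* (SD, n = 3 each), 1.56-fold lower in the mutant, with a log2FC of -0.64 (SE 0.14, edgeR adjusted p = 0.0313). This lies close to the limit of 0.6. GstD1 was no longer called without mutant replicate 2 (log2FC -0.66, adjusted p = 0.126), without mutant replicate 3 (-0.57, adjusted p = 0.129) or without *wild-type* replicate 1 (-0.59, edgeR adjusted p = 0.137).

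**Figure D4:**
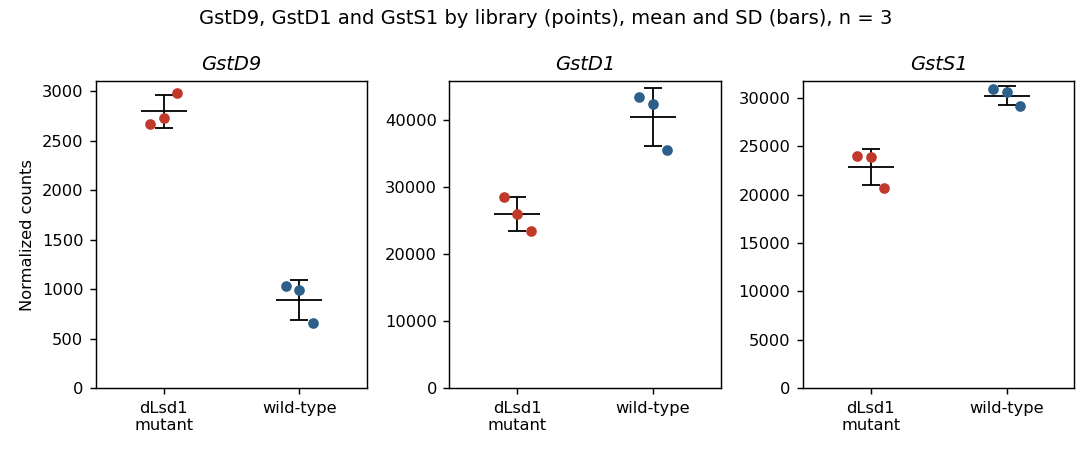
Normalised counts (linear axes from 0) of GstD9, GstD1 and GstS1 in the 3 *dLsd1* mutant libraries (left) and the 3 *wild-type* libraries (right), with the mean and SD as bars. GstD9 is higher in each mutant library (2673 to 2985) than in any *wild-type* library (664 to 1032), and GstD1 and GstS1 are lower in each mutant library.

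The genes that moved in opposite directions are direct neighbours. Both are transcribed from the minus strand, and 252 bp separate the end of GstD1 from the start of GstD9 downstream of it. In level per length GstD1 exceeded GstD9 9.97, 8.89 and 7.31 times in the mutant libraries, against 39.3, 39.8 and 49.9 times in the *wild-type* libraries. The ratio was thus lower in all 3 mutant libraries, as the fold changes of the pair already imply. The whole delta class lies within 20.8 kb on 3R (12364776 to 12385624). Of the 14 other genes listed within 20 kb of it or between its members, 10 had enough counts to be tested and none was called, the lowest edgeR adjusted p being 0.346. These included the abundant flanking genes MBD-R2 (log2FC -0.08) and CG10038 (0.05).

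Levels within the delta cluster differed by orders of magnitude between neighbours. GstD3 (FBgn0010039) had a level of 112 ± 7.8 in the mutant and 108 ± 17.3 in *wild-type*, with a log2FC of 0.05 (SE 0.14, 95% interval -0.27 to 0.37), and lies between GstD2 (0.52 ± 0.34 in the mutant and 0.53 ± 0.32 in *wild-type*) and GstD4 (0.84 ± 0.31 in the mutant and 0.38 ± 0.17 in *wild-type*). GstD5, GstD6 and GstD7 had mean levels of 0.72, 0.13 and 0.13 in the mutant, against 0.42, 0.18 and 0.03 in *wild-type*. GstD10, next to GstD9 on its other side, had 47, 54 and 40 counts in mutant and 105, 54 and 51 in *wild-type* libraries. Its level was 1.39 ± 0.13 in the mutant and 2.87 ± 1.56 in *wild-type*, with overlapping libraries, a log2FC of -1.01 and an adjusted p of 0.253 (edgeR). Without *wild-type* replicate 3 the log2FC was -1.38 (edgeR adjusted p = 0.0133), in a fit that called 1588 of 10617 genes. Without *wild-type* replicate 2 it was -0.60 (edgeR adjusted p = 0.545). GstD10 was called in no other fit with a library left out. Delta genes are close paralogs, and how reads that match several of them were divided is not given in the sources used here, so low values beside an abundant relative are uncertain.

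**Figure D5:**
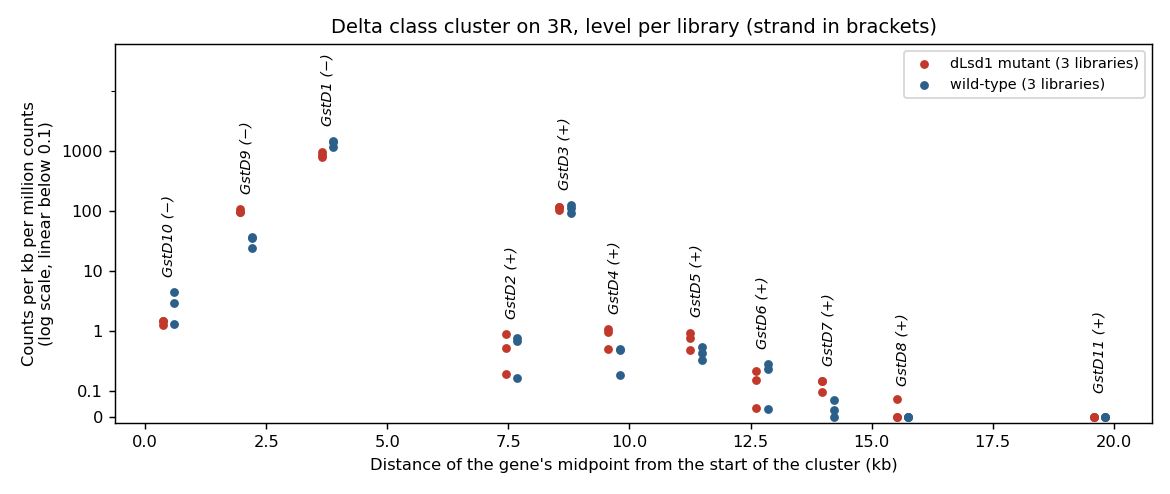
Level of the 11 delta class genes (CPM per kilobase, log axis that is linear below 0.1) against the distance of the gene's midpoint from the start of the cluster on 3R in kilobases, a point per library, with the strand in brackets. GstD9, GstD1 and GstD3 stand out from the other 8 genes, and the genotypes separate at GstD9 (mutant higher) and GstD1 (mutant lower), and at GstD7 (mutant higher), which had 4 counts or fewer in each library.

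None of the 11 epsilon genes tested passed, and 4 of them had a positive log2FC. GstE11 (FBgn0034354; 2R, 18503608 to 18505025), the epsilon gene with the highest *wild-type* level, had 5628, 5344 and 5073 normalised counts in mutant libraries, against 6078, 5610 and 4959 in *wild-type* libraries. The groups overlapped, and the log2FC was -0.05 (SE 0.12, 95% interval -0.32 to 0.22, edgeR adjusted p = 0.833). GstE12 and GstE13, which like GstE11 lie outside the main epsilon cluster on 2R, had log2FCs of -0.08 and -0.21. The 3 genes together held most of the epsilon level, with levels of 158 ± 8.2, 138 ± 2.6 and 82.6 ± 2.9 for GstE11, GstE12 and GstE13 in the mutant, against 163 ± 16.6, 146 ± 14.4 and 95.7 ± 13.4 in *wild-type*.

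GstE1 to GstE10 lie within 13.2 kb on 2R (18396638 to 18409835). GstE1 led this cluster, with a level of 20.6 ± 2.9 in the mutant and 28.4 ± 9.5 in *wild-type*, and GstE5 followed at 7.11 ± 0.97 in the mutant and 10.1 ± 1.1 in *wild-type*. GstE5 was lower in each mutant library (197, 159 and 207 normalised counts) than in each *wild-type* library (299.9, 258 and 247), but its log2FC of -0.52 (SE 0.17) had an adjusted p of 0.149 from edgeR. GstE3, GstE6 and GstE8 had levels between 2.499 and 5.17 in the mutant and between 2.85 and 5.19 in *wild-type*, and GstE7 and GstE9 were below 0.60 in both. Exons of GstE1, GstE9, GstE12 and GstE13 overlap those of genes on the opposite strand by 6 to 40 bp. The log2FC of GstE1 was -0.45 (edgeR adjusted p = 0.386) with all libraries. Without *wild-type* replicate 3 it was -0.69 and GstE1 was called (edgeR adjusted p = 0.0144), and without *wild-type* replicate 2 it was -0.22 (edgeR adjusted p = 0.724). The log2FC of GstE6 was -0.21 with all libraries and 0.14 without *wild-type* replicate 1, and it was not called in either fit.

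GstE14, known as noppera-bo for its role in steroid hormone synthesis in the prothoracic gland, had 0 counts in each mutant library and 23, 0 and 0 counts in the *wild-type* libraries. All of its counts came from *wild-type* replicate 1. It was not called with all libraries (edgeR adjusted p = 0.365), and it was called without *wild-type* replicate 3 (edgeR adjusted p = 0.0584). *Wild-type* replicate 1 also held 142 counts of the steroid synthesis gene spok, against 2, 5 and 3 in mutant libraries and 0 in both other *wild-type* libraries, and 593 counts of sad, against 139, 203 and 164 in mutant libraries and 58 and 163 in the other *wild-type* libraries. These genes were looked up after the counts of GstE14 had been seen. A list of 8 such genes, of which 5 could be matched, summed to 13.8 to 17.4 CPM in mutant libraries and to 26.1, 11.6 and 10.2 in *wild-type* replicates 1 to 3, and none of the 5 was called. Whether tissue of the prothoracic gland was part of that sample was not tested.

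The omega genes, whose enzymes reduce dehydroascorbate and mixed disulphides, lie within 6.0 kb on 3L (8518885 to 8524866), and none of the 3 passed. GstO3 (FBgn0035904; 3L, 8518885 to 8520295) had 8640, 9598 and 8731 normalised counts in mutant libraries, against 9293, 8202 and 6596 in *wild-type* libraries. The groups overlapped, with *wild-type* replicate 3 the lowest, and the log2FC was 0.16 (SE 0.14, 95% interval -0.17 to 0.49, edgeR adjusted p = 0.567). For GstO2 and GstO1 it was 0.02 and -0.15, with intervals of -0.25 to 0.28 and -0.44 to 0.14. A further gene of this class, sepia (se), which makes an eye pigment precursor and is not named by the rule, overlaps exons of GstO2 on the opposite strand over 61 bp. It had 29, 46 and 32 counts in mutant and 61, 19 and 39 in *wild-type* libraries, with a log2FC of -0.42 (SE 0.34, edgeR adjusted p = 0.540).

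GstS1 (FBgn0010226; 2R, 17093246 to 17099501), the sigma class enzyme, conjugates the lipid peroxidation product 4-hydroxynonenal and is abundant in adult flight muscle. It had 23967, 23895 and 20663 normalised counts in mutant libraries, against 30921, 30594 and 29084 in *wild-type* libraries. The groups did not overlap, and the gap between them was wider than the range within either genotype. The log2FC was -0.40 (SE 0.12, 95% interval -0.67 to -0.14, edgeR adjusted p = 0.0948). GstS1 therefore passed the limit on the adjusted p, as did 3 of the 30 GST genes in all and 7.93% of all genes, but not that on the fold change. Over the alternative fits its adjusted p ranged from 0.0178 to 0.289. The 11 muscle markers tested had a median log2FC of 0.70, with Mlc2 called as higher in the mutant, and their part in the GstS1 values was not tested.

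Of the 4 theta genes none passed, and 3 had a positive log2FC. GstT1 (FBgn0050000; 2R, 9605988 to 9607184) had 2475, 2528 and 2823 normalised counts in mutant libraries, against 3261, 2692 and 2513 in *wild-type* libraries, with a log2FC of -0.11 (SE 0.13, 95% interval -0.41 to 0.18, edgeR adjusted p = 0.671). Its neighbour GstT2, at a level of 17.0 ± 1.5 in the mutant and 14.8 ± 0.8 in *wild-type*, had a log2FC of 0.20, although 223 bp of its exons overlap CG12926 on the opposite strand. GstT3 on X was higher in each mutant library (1300, 1307 and 1361 normalised counts) than in each *wild-type* library (1131, 1097 and 878). Its log2FC was 0.36 (SE 0.12, edgeR adjusted p = 0.164), and that of GstT4, also on X, was 0.28 (SE 0.17, edgeR adjusted p = 0.417).

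The zeta class holds maleylacetoacetate isomerase, an enzyme of tyrosine breakdown, and its genes GstZ1 and GstZ2 lie side by side on 3R. GstZ1 (FBgn0037696; 3R, 9455517 to 9456546) had 723, 718 and 825 normalised counts in mutant libraries, against 1206, 927 and 857 in *wild-type* libraries. It was lower in every mutant library, but by little between mutant replicate 3 and *wild-type* replicate 3, and its log2FC of -0.40 (SE 0.15, 95% interval -0.74 to -0.06) had an adjusted p of 0.191 from edgeR. GstZ2, the weaker gene of the pair, had levels of 1.06 ± 0.18 in the mutant and 0.94 ± 0.32 in *wild-type*.

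Genes outside the rule were read from a list of 37 symbols, mainly for making, recycling or using glutathione and thioredoxin. It also held the broader antioxidant genes Cat, Sod1, Sod2 and Sod3 and the thiol reductase genes GILT1, GILT2 and GILT3. Of the symbols, 30 were matched and 27 tested. Of these 1 rose and 2 fell, beside 4.32% and 2.23% of all genes tested, and the median log2FC was -0.13, beside -0.02 for all genes tested. Mgstl, a membrane-bound enzyme with GST activity, rose, with 3622, 3374 and 2703 normalised counts in mutant libraries, against 2019, 2210 and 2121 in *wild-type* libraries (log2FC 0.61, SE 0.13, edgeR adjusted p = 0.0346). This log2FC is just beyond the limit of 0.6. Men (log2FC 0.57, edgeR adjusted p = 0.0178) and Prx3 (0.37, edgeR adjusted p = 0.0946) passed the limit on the adjusted p but not that on the fold change. The peroxiredoxin gene Prx6c fell to 25.1 ± 5.0 normalised counts in the mutant, against 79.6 ± 14.8 in *wild-type* (SD, n = 3 each; log2FC -1.65, SE 0.31, edgeR adjusted p = 0.0186). GILT3, a thiol reductase gene, had 0, 2 and 2 counts in mutant and 43, 15 and 26 in *wild-type* libraries and was at least 11.5-fold lower against 3 counts per library (edgeR adjusted p = 0.00801).

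The enzymes that supply glutathione itself did not pass. Gclc and Gclm, the catalytic and modifier subunits of the ligase that starts glutathione synthesis, had log2FCs of 0.07 (SE 0.10) and -0.23 (SE 0.12) and edgeR adjusted p-values of 0.742 and 0.346. Trxr1, whose thioredoxin reductase keeps glutathione reduced in flies, had a log2FC of -0.27 (SE 0.16, edgeR adjusted p = 0.422).

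Of the CncC and Keap1 list (16 genes, 13 tested) 3 rose and none fell, beside 4.32% and 2.23% of all genes tested. Its median log2FC was 0.31, and 0.30 once 2 genes at the floor took their bounds, beside -0.02 for all genes tested. The regulators themselves did not pass. Keap1 had 932, 898 and 972 normalised counts in mutant libraries, against 849, 871 and 852 in *wild-type* libraries (log2FC 0.12, SE 0.10, edgeR adjusted p = 0.520). The gene of CncC, cnc, had 3402, 3534 and 3938 in mutant libraries, against 2023, 1880 and 4405 in *wild-type* libraries, where replicate 3 exceeded all mutant libraries (log2FC 0.39, SE 0.34, edgeR adjusted p = 0.579). Counts of cnc are for the whole gene, so its transcripts were not told apart. The 3 genes that rose were Jheh1 and Jheh3, which code for epoxide hydrolases that act on juvenile hormone, and the cytochrome P450 gene Cyp6a2. Jheh1 had 1398 ± 147 normalised counts in the mutant and 380 ± 105 in *wild-type* (SD, n = 3 each), a log2FC of 1.90 (SE 0.20, edgeR adjusted p = 0.00126). Jheh3 had 39.2 ± 6.2 in the mutant and 7.7 ± 3.7 in *wild-type*, a log2FC of 2.34 (SE 0.47, edgeR adjusted p = 0.0245), while Jheh2 from the same list had 14713 ± 1043 in the mutant and 13716 ± 2655 in *wild-type* and did not pass. Cyp6a2 had 30, 49 and 25 counts in mutant libraries and 0 in each *wild-type* library, at least 7.49-fold higher against 3 counts per library (edgeR adjusted p = 0.00516).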

How the data were processed

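Polyadenylated RNA of the 6 samples was sequenced as stranded paired-end libraries, all on the same lane. Per the labels and the methods, the authors trimmed reads with Trimmomatic 0.36, mapped them to dm6 with STAR 2.5.2a and discarded duplicates by means of Picard. Their deposited tables, 1 per library and in TEToolkit format, hold unnormalised whole-number counts for genes and for transposable element (TE) families, while their own gene test used htseq-count. Whether duplicates were gone before counting, the annotation release, the strand setting and the handling of reads with several matches are not given in the sources used here. Symbols and dm6 positions came from FlyBase identifiers in the BDGP6 annotation of Ensembl release 115, in which 17249 of 17471 genes had a position.

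The test was that of edgeR 4.0.16 under R 4.3.3 (TMM, robust quasi-likelihood F-test, genotype as the only term) on every gene or TE family that reached 10 counts in total, with Benjamini-Hochberg adjustment over all of them. The limits for a call were 0.6 in log2 fold change, either way, and 0.1 in adjusted p, as the study set them. Standard errors follow from the log2 fold change and F, and 95% intervals use the t distribution with the degrees of freedom of that test. Normalised counts are scaled to the mean effective library size. Tables and figures were made with pandas 2.3.3, scipy 1.17.1 and matplotlib 3.10.9, and the tests were checked on simulated data. That simulation gave all genes the same spread, below the common spread of these data, and planted only changes well beyond 0.6. It therefore does not speak to calls near that limit. Every pair of replicates was further apart than counting noise allows, so each library counted as 1 replicate. Nothing in the labels says that samples came from separate crosses, so p-values measure the spread between these samples.

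The replicate numbers of the labels were taken as pairs (a block) in an alternative fit only, and not in the main fit. The reason was that deviations from the genotype mean correlated above 0.1 in each same-numbered pair of a mutant and a *wild-type* library. The correlations were r = 0.414, 0.185 and 0.462 over 7555 features. The labels name no shared batch, and mutant replicate 1 also correlated with *wild-type* replicate 2 (r = 0.351). A fit with this block was an alternative, beside DESeq2 1.42.0, upper-quartile factors, TMM factors from genes only, other filters and thresholds, genes alone, and each library left out in turn. Genes named with full values are all GST genes called and the member of each class with the highest *wild-type* level. For the glutathione and CncC lists all genes called and 6 fixed ones are named, some only by means or by fold change. Some further genes, such as GstE5, GstT3 and GstD10, are given by library outside this rule. The gene lists were written by symbol, and the GST genes and lists were chosen with earlier results of these data known.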

Additional observations from a re-analysis of the deposited data

How the results depend on the processing

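GstD9 was called in all 13 alternative fits (log2 fold change 1.46 to 1.76), and GstD1 in 10 of them (-0.73 to -0.57 over all 13). The number of GST genes called was 2 with DESeq2, upper-quartile factors, TMM factors from genes only, no filter, the filter of edgeR's filterByExpr and genes alone. With the replicate block it was also 2, and the block changed no call among the GST genes. Leaving out each library in turn gave 1 to 5. It was 1, GstD9, without mutant replicate 2, without mutant replicate 3 and without *wild-type* replicate 1. Those fits called 3.53%, 4.03% and 4.08% of all genes tested, beside 6.55% in the main fit. Without *wild-type* replicate 3 the number was 5, with GstD10, GstE1 and GstE14 added, in a fit that called 1588 of 10617 genes (15%). At an adjusted p below 0.05 and an absolute log2 fold change above 1 it was 1, GstD9, and with no limit on the fold change it was 3. With the longest transcript as gene length in place of merged exons, the omega sum was 512 in the mutant and 481 in *wild-type*, and the sigma sum 360 in the mutant and 475 in *wild-type*, while the epsilon sum moved to 427 in the mutant (428 with library totals in place of TMM). Depth limits the 11 tested genes with a mean below 100 counts.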
